A study of Danio rerio with 16 samples.

Results

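Brains of wild-type zebrafish larvae that had developed in phenol isopropylated phosphate (IPP) were compared with brains of larvae raised in the vehicle, dimethyl sulfoxide (DMSO), over every gene whose mean over the 8 brain libraries reached 0.5 FPKM. FPKM is the number of reads per gene scaled by the gene's length and by a factor for its library. The cutoff kept 17533 of the 31901 genes in the table, of which 16686 are annotated as protein-coding. The gene just inside it was pde9al at 0.500078 FPKM, and the one just outside was RF00001 at 0.499913 FPKM. The IPP group holds 4 libraries from larvae kept in 0.2 uM IPP, with DMSO at 0.02% as solvent, between 6 and 120 hours post fertilization (hpf), and the DMSO group holds 4 libraries from larvae kept in 0.02% DMSO alone over the same period. All brains were dissected at 120 hpf, and the series of 16 libraries also includes eyes of both treatments. The labels give neither the number of animals per library nor separate clutches, so the p-values reflect the spread among these libraries alone, and that spread may be technical. The title of the series places the comparison within a study of impaired photomotor responses, the changes in swimming that follow a change of light.

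IPP is a mixture of aryl phosphate esters that serves as a flame retardant and plasticizer. At 120 hpf the zebrafish brain is already a working organ. The optic tectum receives the axons of retinal ganglion cells, the thalamus and pretectum relay light information, the hypothalamus controls the pituitary beneath it, and the hindbrain drives swimming. Many transcription factors that pattern these regions in the embryo remain expressed in their neurons, so dissected brains can be read by region as well as by pathway.

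The brain libraries held 9.62 M to 16.3 M assigned reads in the IPP group and 10.3 M to 12.5 M in the DMSO group. IPP 3 and IPP 4 held 16.3 M each, more than any other brain library. Mitochondrially encoded genes accounted for 4.62% to 5.18% of the reads in IPP brains and 4.52% to 5.25% in DMSO brains. Neuronal markers were high throughout, as the label of brain requires, with elavl3, a neuronal RNA-binding protein, at 234 to 298 FPKM and snap25a, a synaptic fusion protein, at 391 to 554 FPKM over the 8 libraries. Of the microglial markers, apoeb had 32.1 to 205 FPKM and mpeg1.1 had 0.062 to 0.53 FPKM over the 8 libraries. The marker c1qa was at 0 in all libraries but IPP 4, where it had 0.058 FPKM. IPP 4 stood apart, with Pearson correlations, taken across genes on the log2(FPKM + 0.5) scale and given as a description, of 0.8288 to 0.8971 with the other 7 libraries, against 0.902 to 0.979 among the other 21 pairs.

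Some libraries carried RNA of liver and gut, skin, cartilage or muscle, and such libraries occurred in both groups. Apoa2, an apolipoprotein made by the liver and yolk, had 8.10, 5.70, 1.25 and 3822 FPKM in IPP 1 to 4, against 2186, 4.21, 4.103 and 6.80 FPKM in DMSO 1 to 4. It was therefore high in IPP 4 and DMSO 1 alone. The summed FPKM of the 47 liver and gut genes in the table was highest in the same libraries, with 114, 156, 128 and 20818 in IPP libraries and 8085, 193, 125 and 521 in DMSO libraries. In DMSO 4 the sum included 145 FPKM of prss1, a trypsin gene of that list, which had 224 FPKM in DMSO 1. Krt4, a keratin of the surface epithelium, had 5.68, 2.19, 285 and 268 FPKM in IPP brains, against 3.43, 96.1, 107 and 244 FPKM in DMSO brains. The 38 skin genes summed to 75.8, 80.6, 2573 and 2765 FPKM in IPP brains and 118, 387, 633 and 2469.7 FPKM in DMSO brains, so IPP 3, IPP 4 and DMSO 4 carried most. Col2a1a, the main collagen of cartilage, had 4.07, 4.64, 129 and 128 FPKM in IPP brains, against 3.26, 4.56, 83.4 and 111 FPKM in DMSO brains. Its list of 45 cartilage and connective tissue genes summed to 150.5, 140.2, 1396 and 1349 FPKM in IPP brains and 139.9, 163, 755 and 1160.0 FPKM in DMSO brains, high in 2 libraries of each group. Muscle genes summed to 82.5 to 1627 FPKM in IPP brains and 143 to 1519 FPKM in DMSO brains and were highest in IPP 4 and DMSO 4, although mylpfa was at 0 in all 8. Photoreceptor genes summed to 168 to 406 FPKM in IPP brains and 155 to 199 FPKM in DMSO brains, with the top in IPP 4. A single member of that list, gnb1b, had 126 to 151 FPKM over the 8 libraries and made up most of the sum outside IPP 4. The rod opsin gene rho had 35.3 FPKM in IPP 4 and 0.158 to 7.77 FPKM elsewhere. The lens genes cryaa and crygm2d1 were at 0 in every library except for 0.279 FPKM of cryaa in IPP 4.

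**Figure D1:**
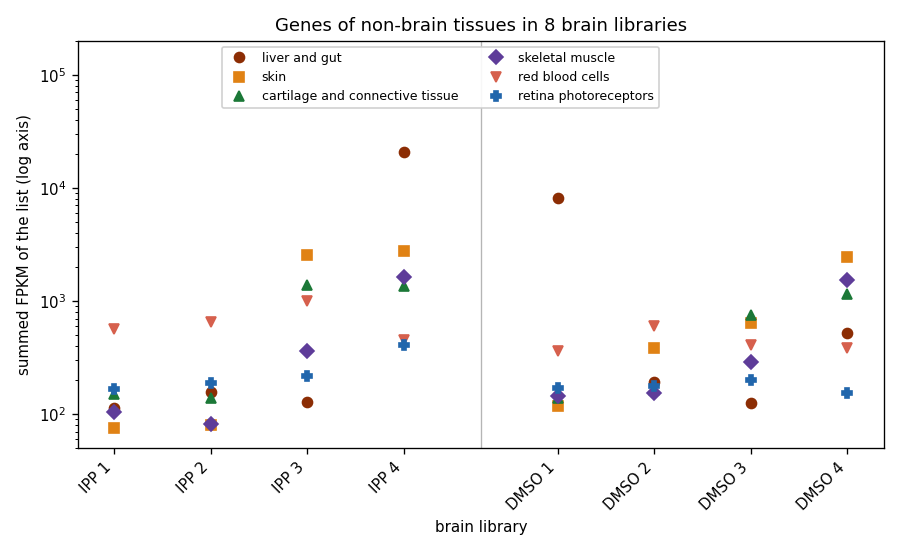
Summed FPKM (log axis) of 6 lists of genes typical of tissues other than neural tissue of the brain, in the 4 IPP and the 4 DMSO brain libraries; each symbol is 1 list in 1 library. Liver and gut genes reach 20818 in IPP 4 and 8085 in DMSO 1, and skin genes lie between 2470 and 2765 in IPP 3, IPP 4 and DMSO 4.

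No gene passed the correction in either direction. With limma on log2(FPKM + 0.5), two-sided and with Benjamini-Hochberg adjustment over 17533 genes at a threshold of 0.05, 0 genes were called higher (0.0%) and 0 were called lower (0.0%), and the smallest adjusted p was 0.999964. At an unadjusted p under 0.05 there were 273 genes higher in IPP brains (1.56%) and 239 lower (1.36%), or 2.92% of those tested. Of all genes, 53.1% had a positive log2 ratio and 46.9% a negative one. Limma-voom on reads rebuilt from the FPKM also called 0 and had 247 higher and 245 lower at that level. The lowest IPP library exceeded the highest DMSO library for 168 genes (0.958%), and the highest IPP library was below the lowest DMSO library for 193 (1.1%). All differences below are log2 ratios of IPP over DMSO on the log2(FPKM + 0.5) scale, which understates the fold of low genes, and every gene named has an adjusted p above 0.05 by limma.

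The data also limit how large a difference could have been missed. The median log2 ratio over all genes was 0.014, the central part of the genes, from the 5th to the 95th percentile, lay between -0.30 and 0.54, and 262 genes (1.49%) lay beyond a 2-fold difference in either direction. The 95% confidence interval on the log2(FPKM + 0.5) scale lay wholly within a 2-fold difference for 13651 genes (77.9%). That share was 54.6% of the 4414 genes with a mean of 0.5 to 2 FPKM, 78.5% of the 6717 genes from 2 to 10 FPKM, 93.1% of the 5819 genes from 10 to 100 FPKM and 94.5% of the 583 genes above 100 FPKM. For most genes that the brain expresses strongly, a 2-fold difference in either direction was thus outside the interval, while for low genes it often was not. Because the scale understates the fold of low genes, the shares for low genes are too high for 2-fold differences in FPKM itself.

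**Figure D2:**
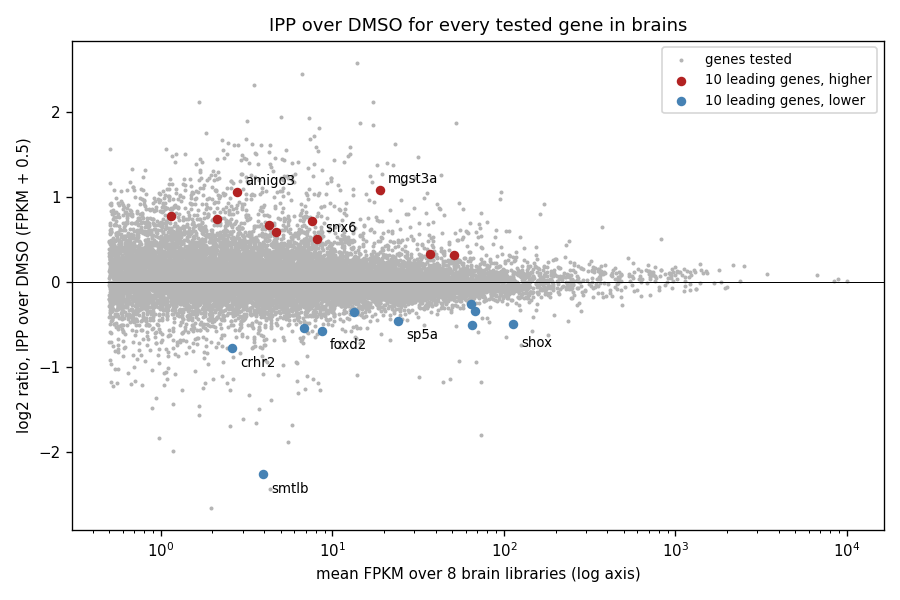
Log2 ratio of IPP over DMSO for each of the 17533 genes (grey) against its mean FPKM over the 8 brain libraries (log axis), with the 10 leading genes per direction in colour. The spread narrows as expression grows, and smtlb, at -2.26, stands well below the other leading genes.

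Next come, in each direction, the genes with the smallest unadjusted p whose mean reached 1 FPKM, whose symbol is no clone name and whose groups did not overlap, as a description, since none passed. The foremost was smtlb, which encodes somatolactin beta, a fish pituitary hormone of the growth hormone and prolactin family. Smtlb had 0.933, 0.595, 0.496 and 2.46 FPKM in the 4 IPP libraries, against 4.05, 7.29, 7.51 and 8.09 FPKM in the 4 DMSO libraries. Each IPP library was below each DMSO library, with a log2 ratio of -2.26 (95% interval -3.10 to -1.42, unadjusted p = 0.000211). Without IPP 4 and DMSO 1, the pair rich in liver RNA, its log2 ratio was -2.81 and its adjusted p by limma was 0.0703, the smallest of that fit.

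Among the 10 leading genes with lower values, 5 encode transcription factors of the developing nervous system. The share of such factors over all genes was not computed, so this count shows no excess of them. Foxd2, a forkhead factor, had 6.64, 6.51, 7.53 and 6.71 FPKM in IPP brains, against 9.29, 11.6, 10.6 and 10.4 FPKM in DMSO brains, a log2 ratio of -0.58 (95% interval -0.81 to -0.35, unadjusted p = 0.000343). Its values varied little within either group and the groups lay well apart. Pou4f2, a POU factor of retinal ganglion cells that is also found in the tectum, had 51.0, 66.5, 51.2 and 45.9 FPKM in IPP brains, against 81.2, 81.2, 72.1 and 69.7 FPKM in DMSO brains, a log2 ratio of -0.51 (unadjusted p = 0.00212). Its highest IPP library, IPP 2, came close to the lowest DMSO library, DMSO 4. Shox, a homeobox factor best known from human short stature, had 102, 107, 92.0 and 75.1 FPKM in IPP brains, against 140.1, 132, 129 and 124 FPKM in DMSO brains. The lowest value was that of IPP 4, and the log2 ratio was -0.49. Sox14, a factor of inhibitory neurons of the thalamus and pretectum, had 54.5, 65.3, 58.1 and 61.6 FPKM in IPP brains, against 84.3, 79.7, 71.2 and 69.8 FPKM in DMSO brains. Sp5a, a zinc finger target of Wnt signalling, had 19.4, 22.7, 20.7 and 17.7 FPKM in IPP brains, against 30.4, 29.7, 27.5 and 23.7 FPKM in DMSO brains. Their log2 ratios were -0.35 for sox14 and -0.46 for sp5a, and these groups were separated by narrow gaps.

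The other 4 leading genes with lower values are of mixed function. Crhr2, a receptor for the stress peptides of the corticotropin-releasing hormone family, had 2.11, 1.73, 1.24 and 2.02 FPKM in IPP brains, against 3.03, 2.99, 4.22 and 3.33 FPKM in DMSO brains, a log2 ratio of -0.78 (unadjusted p = 0.00263). Chrnb3a, a subunit of nicotinic acetylcholine receptors, had 10.8, 12.4, 12.7 and 10.98 FPKM in IPP brains, against 16.2, 15.5, 14.9 and 13.6 FPKM in DMSO brains. Its log2 ratio was -0.35, a small difference with little spread. Mlf2 had a log2 ratio of -0.54 and ppp1r14c, which encodes an inhibitor of protein phosphatase, one of -0.26.

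The 10 leading genes with higher values had unadjusted p between 0.00321 and 0.00828. Snx6, a sorting nexin of the retromer pathway that returns membrane proteins from endosomes, had 8.78, 8.65, 9.68 and 11.2 FPKM in IPP brains, against 7.08, 5.70, 7.42 and 6.22 FPKM in DMSO brains, a log2 ratio of 0.50. Its value was highest in IPP 4. Mgst3a, a microsomal glutathione S-transferase, had 16.01, 18.9, 29.1 and 40.5 FPKM in IPP brains, against 13.2, 7.80, 13.0 and 12.3 FPKM in DMSO brains, a log2 ratio of 1.08 (95% interval 0.40 to 1.75). The excess was widest in IPP 3 and IPP 4, while IPP 1 and IPP 2 lay closer to the highest DMSO library. Skin and cartilage RNA was high in IPP 3 and IPP 4 but also in DMSO 4, where mgst3a had 12.3 FPKM. The log2 ratio of mgst3a was 1.05 with skin and liver levels as covariates and 1.03 with the cartilage level. The mean levels of those lists were close between the groups, so these fits could move it little. The ratio was 0.60 without IPP 3 and IPP 4, and 0.91 without IPP 4 and DMSO 1, the pair rich in liver RNA. The part of those tissues was not tested. Gstm.1, a cytosolic glutathione S-transferase, had 52.8, 52.8, 62.7 and 59.7 FPKM in IPP brains, against 44.5, 47.8, 41.3 and 49.8 FPKM in DMSO brains, a log2 ratio of 0.31. Amigo3, a cell adhesion protein, had 3.89, 3.42, 5.82 and 2.58 FPKM in IPP brains, against 0.793, 2.21, 1.70 and 1.84 FPKM in DMSO brains, and it overlaps a gene on the opposite strand, so its reads cannot be told apart from that gene's if strand was not used. Arf6a, a small GTPase of membrane traffic, had 36.0, 38.004, 45.7 and 44.8 FPKM in IPP brains, against 32.1, 34.5, 31.4 and 32.0 FPKM in DMSO brains. Its log2 ratio of 0.33 was among the smallest of the 10. The others were atrxl with a log2 ratio of 0.58, sub1b with 0.72, the depalmitoylase gene abhd17aa with 0.66, the cationic amino acid transporter relative slc7a4 with 0.77, and the actin-regulated coactivator mkl1b with 0.73, which also overlaps a gene on the opposite strand.

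**Figure D3:**
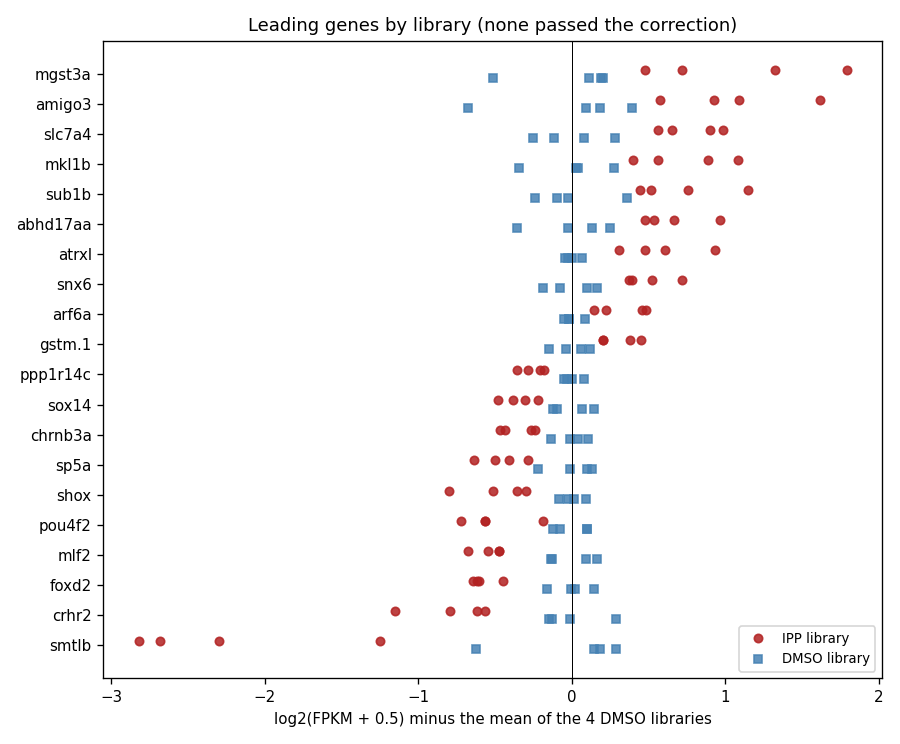
The 20 leading genes by library, as log2(FPKM + 0.5) minus the mean of the 4 DMSO libraries; circles are IPP libraries and squares are DMSO libraries, 4 each per gene. The groups do not overlap for any of the 20, which was a condition of their choice, and smtlb shows the widest gap.

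Genes of the pituitary had the lowest median of the lists examined. Of 15 tested members, 12 had a lower mean on the log scale in IPP brains and 3 a higher one, with a median log2 ratio of -0.31, against a median of 0.014 over all genes. Of these, 6 were lower at an unadjusted p under 0.05 and 0 higher, against 1.36% and 1.56% of all genes, and 1 of the 15 had groups that did not overlap, with IPP lower, against 1.1% of all genes. This list and all others below were chosen with earlier results of these data known. Their counts beside those of all genes are thus a description and no test. In bulk RNA, fewer cells of a type and less RNA per cell cannot be told apart.

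The members with low values were the hormone genes. Gh1, growth hormone, had 31.8, 31.7, 31.0 and 53.5 FPKM in IPP brains, against 100.3, 60.4, 88.4 and 41.7 FPKM in DMSO brains, a log2 ratio of -0.92 (95% interval -1.59 to -0.26, unadjusted p = 0.0121). IPP 1 to 3 lay together at about the same level below every DMSO library, and IPP 4 lay above DMSO 4. Prl, prolactin, had 2.602, 2.11, 1.74 and 7.93 FPKM in IPP brains, against 14.2, 5.44, 11.4 and 4.95 FPKM in DMSO brains, a log2 ratio of -1.30. Pomca, the precursor of corticotropin and melanocyte-stimulating hormone, had 3.77, 3.75, 4.12 and 7.44 FPKM in IPP brains, against 15.0, 8.38, 8.61 and 5.46 FPKM in DMSO brains, a log2 ratio of -0.87, and it overlaps a gene on the opposite strand. In both, IPP 4 again lay within the range of the DMSO libraries. Smtla, the other somatolactin, had a log2 ratio of -1.11, cga, the shared alpha subunit of the glycoprotein hormones, one of -0.72, and tshba, the thyrotropin beta subunit, one of -0.63 (these 3 were named after their values were seen). All 7 hormone genes tested had negative log2 ratios, but only the interval of tshba among them reached 0, and the 8 other members, among them the factors pitx1 and lhx4, lay between -0.31 and 0.38. The gene prl2, a further prolactin named after its values were seen, averaged under the 0.5 FPKM limit and was not tested. It lay the other way, with 0.549, 0.840, 0.5001 and 0.612 FPKM in IPP brains, against 0.275, 0, 0.0798 and 0 FPKM in DMSO brains. The sign of the list's median was kept in all 22 alternatives. Among these, a block for the replicate number and median-of-ratios scaling could not change it. The summed FPKM of the list was 74.5 to 109 in IPP brains and 103 to 177 in DMSO brains, a narrow overlap. The labels do not say whether the pituitary was taken along in every dissection, and its part in these values was not tested.

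The peptides by which the hypothalamus and other nuclei signal had no common sign. Of 54 tested neuropeptide genes, 32 had positive and 22 negative log2 ratios, with a median of 0.060. Crha, one of the genes for corticotropin-releasing hormone, had 1.42, 0.739, 1.14 and 1.15 FPKM in IPP brains, against 0.516, 0.707, 0.562 and 0.473 FPKM in DMSO brains, a log2 ratio of 0.59 (unadjusted p = 0.0259). The groups did not overlap, at levels near the lower limit of the genes tested. Of the 54, 1 was lower (pomca) and 1 higher (crha) at an unadjusted p under 0.05, against 1.36% and 1.56% of all genes.

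Transcription factors that pattern the forebrain and midbrain had mostly negative log2 ratios. Of 56 tested, 39 were negative and 17 positive, with a median of -0.15, and 8 had an unadjusted p under 0.05 with a lower value and 1 with a higher one, against 1.36% and 1.56% of all genes. In 6 of the 56 the groups did not overlap, with IPP lower, against 1.1% of all genes. These counts are a description, since the list was chosen with earlier results of these data known. As a whole the list overlapped, with summed FPKM of 1432 to 1659 in IPP brains and 1528 to 1895 in DMSO brains. The mean of its tested members on the log scale was lowest in DMSO 4. Emx2, a homeobox factor of the dorsal forebrain, had 39.9, 44.4, 49.3 and 47.6 FPKM in IPP brains, against 57.1, 54.6, 51.6 and 56.0 FPKM in DMSO brains, a log2 ratio of -0.28 (unadjusted p = 0.00807). Otx1, a factor of forebrain and midbrain, had 45.2, 44.6, 46.2 and 43.4 FPKM in IPP brains, against 54.9, 64.3, 53.9 and 48.5 FPKM in DMSO brains, a log2 ratio of -0.30. These were small differences, and the groups did not overlap but were separated by narrow gaps. Lhx9, a LIM factor of the thalamus and tectum, had 45.01, 49.6, 44.5 and 35.6 FPKM in IPP brains, against 55.3, 56.1, 53.3 and 54.1 FPKM in DMSO brains. Nkx2.4a, a homeobox factor of the hypothalamus, had 7.28, 12.2, 13.8 and 9.02 FPKM in IPP brains, against 14.2, 17.9, 18.6 and 15.0 FPKM in DMSO brains. Their log2 ratios were -0.33 for lhx9 and -0.64 for nkx2.4a, while nkx2.4b, the paralog of nkx2.4a, had -0.40. Bcl11ba had -0.27, tal1, a factor of inhibitory neurons of the midbrain, had -0.30, and otx2b had -0.42 and overlaps a gene on the opposite strand.

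Positive log2 ratios in this list included those of 4 genes expressed in the telencephalon, the foremost part of the brain, which were picked after their values were seen. Emx2, which the telencephalon also expresses, had the negative log2 ratio given above. Emx3 had 7.70, 5.84, 4.80 and 9.17 FPKM in IPP brains, against 3.40, 3.53, 6.41 and 4.42 FPKM in DMSO brains, a log2 ratio of 0.58 (unadjusted p = 0.0437). Eomesa, a T-box factor of excitatory neurons of the pallium, had 49.5, 34.7, 25.1 and 34.8 FPKM in IPP brains, against 23.9, 25.1, 36.8 and 19.4 FPKM in DMSO brains. In both, IPP 3 was the lowest IPP library and DMSO 3 the highest DMSO library, and the groups overlapped. Foxg1a, the defining factor of the telencephalon, had a log2 ratio of 0.32 (unadjusted p = 0.0958) and tbr1b one of 0.34 (unadjusted p = 0.106). Bcl11ba, tal1, otx2b and nkx2.4b were likewise named after their values were seen. Cerebellar genes had 26 of 32 log2 ratios negative and a median of -0.14, but the median was 0.041 without IPP 4 and DMSO 1. Barhl2, a homeobox factor of the list, had 9.58, 11.05, 10.9 and 8.96 FPKM in IPP brains, against 14.2, 11.9, 14.4 and 12.1 FPKM in DMSO brains, a log2 ratio of -0.36 with no overlap.

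Hox genes mark the hindbrain and the spinal cord behind it, and the 3 described here varied by library rather than by group. Hoxb5a had 11.96, 8.43, 0.203 and 4.24 FPKM in IPP brains, against 5.13, 16.4, 10.6 and 8.88 FPKM in DMSO brains, and it was nearly missing in IPP 3. Hoxa5a had 3.9999, 3.56, 0.0684 and 0.372 FPKM in IPP brains, against 1.40, 7.81, 3.14 and 5.69 FPKM in DMSO brains. Hoxc5a had 11.7, 6.72, 0.127 and 1.66 FPKM in IPP brains, against 3.54, 10.3, 7.78 and 7.93 FPKM in DMSO brains. In all 3 the lowest library was IPP 3, followed by IPP 4 and then DMSO 1, and each overlaps a gene on the opposite strand. Hoxb5a and hoxc5a were named after their values were seen, so the shared order is a description. Of the 29 tested hindbrain and Hox genes, 21 had negative and 8 positive log2 ratios. Their median was -0.23, and 0.34 without IPP 3 and IPP 4, so the list's sign rested on those 2 libraries. Egr2b, a member of the list, lay the other way, with a log2 ratio of 0.60. It had 6.15, 7.29, 13.8 and 15.6 FPKM in IPP brains, against 6.99, 6.99, 7.11 and 4.71 FPKM in DMSO brains.

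Immediate early genes, which neurons and other cells switch on within minutes of stimulation, had the highest median of the lists other than foreign tissue, but were high in 2 of the 4 IPP libraries. Of 49 tested, 41 had positive log2 ratios, with a median of 0.46, and 2 were higher at an unadjusted p under 0.05, against 1.56% of all genes. Fosab, a subunit of the AP-1 factor, had 53.9, 128, 470.2 and 293 FPKM in IPP brains, against 198, 138, 122 and 139 FPKM in DMSO brains. Jun, its partner, had 44.9, 56.9, 144 and 147 FPKM in IPP brains, against 48.9, 48.8, 51.7 and 45.8 FPKM in DMSO brains. IPP 3 and IPP 4 were above all other libraries for both, while IPP 1 was below the lowest DMSO library. Gadd45bb, a stress-inducible gene, had 6.76, 8.37, 24.2 and 23.0 FPKM in IPP brains, against 5.22, 5.13, 5.37 and 8.02 FPKM in DMSO brains, a log2 ratio of 1.13 (unadjusted p = 0.0239), and ppp1r15a, which helps to end the translational stress response, one of 0.32. Nr4a1, an orphan nuclear receptor, had 0.676, 1.52, 22.4 and 28.9 FPKM in IPP brains, against 1.87, 1.08, 1.53 and 1.48 FPKM in DMSO brains. Fosab, jun and nr4a1 were named after their values were seen, and fosab overlaps a gene on the opposite strand. Without IPP 3 and IPP 4 the median of the list was -0.089. The list summed to 978, 1481, 4062 and 3252 FPKM in IPP brains and 1772, 1517, 1429 and 1622 FPKM in DMSO brains. IPP 3 and IPP 4 also carried the most skin and cartilage RNA, followed by DMSO 4, where skin genes summed to 2470 FPKM and cartilage genes to 1160 FPKM. The median of the immediate early list was 0.42 with skin and liver levels as covariates and 0.39 with the cartilage level. The mean levels of the skin, liver and cartilage lists were close between the groups, so these fits could move the median little. They cannot show what those tissues contributed, and the part of those tissues in these values was not tested.

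**Figure D4:**
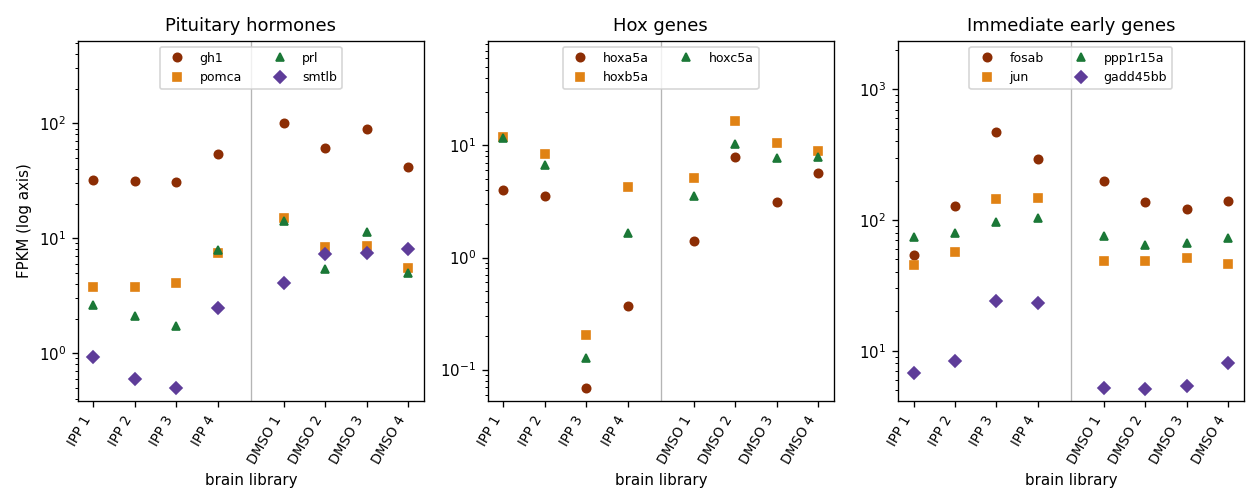
FPKM (log axis) of 4 pituitary hormone genes, 3 Hox genes and 4 immediate early genes in the 4 IPP and the 4 DMSO brain libraries; each symbol is 1 gene in 1 library. Pituitary hormones lie low in IPP 1 to 3, Hox genes are lowest in IPP 3, and immediate early genes are high in IPP 3 and IPP 4.

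Several stress and immune genes were high in the same 2 libraries, IPP 3 and IPP 4, which also held the most reads. Hsp70l, a heat shock chaperone, had 1.04, 1.82, 11.3 and 21.9 FPKM in IPP brains, against 1.43, 0.721, 0.539 and 1.31 FPKM in DMSO brains, a log2 ratio of 1.93 (unadjusted p = 0.0417). Cxcl18b, a chemokine that attracts neutrophils in zebrafish, had 0.242, 0.833, 12.5 and 13.4 FPKM in IPP brains, against 0.324, 0.266, 0.211 and 0.148 FPKM in DMSO brains, a log2 ratio of 2.32 (95% interval 0.17 to 4.46). For both genes IPP 3 and IPP 4 were far above the other 6 libraries. Nfkb2, a subunit of NF-kappaB, had 1.90, 2.91, 4.82 and 3.70 FPKM in IPP brains, against 1.59, 1.76, 1.90 and 2.23 FPKM in DMSO brains. The 35 innate immune genes had a median of 0.24, and -0.13 without IPP 3 and IPP 4. Dnajb9a, a chaperone of the endoplasmic reticulum, lay the other way, with 8.84, 6.62, 7.10 and 6.29 FPKM in IPP brains, against 8.61, 11.7, 10.1 and 11.2 FPKM in DMSO brains, a log2 ratio of -0.50 (unadjusted p = 0.00633). Manf, a secreted factor of the same compartment, had a log2 ratio of -0.75. The list of heat shock and unfolded protein response genes had a median of 0.11. The p53 and apoptosis list had 26 of 38 members positive and a median of 0.11, with gadd45ab, a damage-inducible gene that overlaps a gene on the opposite strand, at 0.74 and the kinase gene plk3 at 0.52. Without IPP 3 and IPP 4 the median was -0.081 for this list and -0.050 for the heat shock list. Glucocorticoid-response genes had 25 of 32 members positive and a median of 0.25, or -0.21 without IPP 3 and IPP 4. Pdk2b, a kinase that slows glucose oxidation, had 10.4998, 11.02, 19.6 and 74.2 FPKM in IPP brains, against 10.2, 7.83, 8.25 and 12.9 FPKM in DMSO brains, and dusp1, a phosphatase, had 17.7, 24.1, 38.6 and 41.0 FPKM in IPP brains, against 20.1, 20.8, 20.1 and 20.2 FPKM in DMSO brains.

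Genes for the handling of foreign compounds and lipids were high in IPP 4, the library with the most liver RNA. Aryl hydrocarbon receptor genes had 16 of 18 members positive and a median of 0.35, and xenobiotic metabolism genes 34 of 41 and 0.35. Without IPP 4 and DMSO 1 the median was -0.033 for aryl hydrocarbon receptor genes and -0.035 for xenobiotic metabolism genes. Cyp1a, the enzyme most often used as a readout of the receptor, had 0.815, 0.234, 0.929 and 35.5 FPKM in IPP brains, against 9.37, 0.486, 1.097 and 0.218 FPKM in DMSO brains. It was thus high in IPP 4 and DMSO 1 and far lower elsewhere. Cyp1c1, a related enzyme, had 2.39996, 1.76, 2.79 and 2.39 FPKM in IPP brains, against 1.36, 1.34, 1.99 and 2.07 FPKM in DMSO brains, a log2 ratio of 0.38 (95% interval -0.073 to 0.83). Cyp2p10, which overlaps a gene on the same strand, had a log2 ratio of -0.49. Pparg, a nuclear receptor that aryl phosphates can bind in cell assays, had 0.281, 0.193, 1.57 and 8.73 FPKM in IPP brains, against 1.69, 0.618, 0.735 and 0.774 FPKM in DMSO brains, and the 42 genes of fatty acid oxidation and its receptors had a median of 0.11. Scd, the desaturase that makes monounsaturated fat, had 4.22, 3.45, 3.24 and 7.21 FPKM in IPP brains, against 2.78, 2.604, 1.97 and 2.97 FPKM in DMSO brains, a log2 ratio of 0.66 (unadjusted p = 0.0266) without overlap. Cholesterol synthesis genes had 22 of 37 members positive and a median of 0.015, and the Nrf2 targets of oxidative stress had 31 of 38 and 0.18, of which txnrd3, a thioredoxin reductase, had 33.2, 33.7, 33.9 and 44.1 FPKM in IPP brains, against 31.1, 32.3, 31.9 and 31.5 FPKM in DMSO brains. The Nrf2 median was 0.049 without IPP 4 and DMSO 1 and -0.135 without IPP 3 and IPP 4.

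Genes of neurons and synapses had small log2 ratios, most of them negative. Of 48 pan-neuronal genes, 40 were negative and 8 positive, with a median of -0.079, and the intervals of all 48 lay within a 2-fold difference. Without IPP 4 and DMSO 1 the median was 0.030. Vamp2, the vesicle protein of synaptic fusion, had 361, 348, 315 and 324 FPKM in IPP brains, against 282, 282, 295 and 310.0 FPKM in DMSO brains, a log2 ratio of 0.20 (95% interval 0.051 to 0.36). It was one of 2 members of the list whose values were higher without overlap, against 0.958% of all genes, the other being uchl1, a ubiquitin hydrolase of neurons, at 0.20. Glutamate signalling genes had 30 of 39 members negative and a median of -0.085. Grm5a, a metabotropic glutamate receptor, had 11.3, 10.2, 9.92 and 9.11 FPKM in IPP brains, against 12.8, 11.8, 13.0 and 12.3 FPKM in DMSO brains, a log2 ratio of -0.29 with no overlap. GABA and glycine genes had 26 of 36 negative and a median of -0.057. Synaptic vesicle genes had 33 of 45 negative and a median of -0.067, with syt9b at -0.17 and sv2bb at -0.26. The medians of the 3 lists of glutamate, GABA and vesicle genes were 0.028, 0.046 and 0.015 without IPP 3 and IPP 4.

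Cholinergic genes were examined because acetylcholinesterase is the classical target of organophosphates that inhibit it. Ache, its gene, had 56.6, 56.7, 42.2 and 35.9 FPKM in IPP brains, against 50.7, 51.2, 53.3 and 47.1 FPKM in DMSO brains, a log2 ratio of -0.11 (95% interval -0.44 to 0.23). The groups overlapped, with IPP 1 and IPP 2 above and IPP 3 and IPP 4 below all DMSO libraries. Ache, cyp1a and pparg were named after their values were seen, and ache overlaps a gene on the opposite strand. Of 19 cholinergic genes 13 were negative, with a median of -0.11, and chrm2a, a muscarinic receptor that overlaps a gene on the opposite strand, had 1.37, 1.80, 1.14 and 2.52 FPKM in IPP brains, against 1.07, 0.668, 0.707 and 1.16 FPKM in DMSO brains. Among the 37 genes of dopamine, serotonin and noradrenaline, whose median was -0.032, th2, a tyrosine hydroxylase of the hypothalamus, had 2.06, 2.37, 4.46 and 3.23 FPKM in IPP brains, against 4.79, 4.84, 4.74 and 4.84 FPKM in DMSO brains, a log2 ratio of -0.63 (unadjusted p = 0.0141). The DMSO libraries were tightly grouped and IPP 3 came closest to them. Ion channels were balanced, with medians of -0.029 for sodium and calcium channels and 0.052 for potassium channels, of which kcnk1a had 2.48, 2.79, 2.32 and 3.21 FPKM in IPP brains, against 0.974, 1.304, 2.26 and 2.28 FPKM in DMSO brains. Axon guidance genes had a median of -0.057.

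Lists of progenitor and dividing cells were close to the median of all genes, and that of oligodendrocytes lay below it. Progenitor and radial glia genes had a median of 0.025 and cell cycle genes one of 0.050, and 58 of 60 cell cycle intervals lay within a 2-fold difference. Ndnfl, a member of the progenitor list, had 12.9, 14.6, 12.5 and 11.12 FPKM in IPP brains, against 21.9, 15.7, 16.2 and 15.4 FPKM in DMSO brains, a log2 ratio of -0.41 with no overlap. Oligodendrocyte genes had 19 of 24 members negative and a median of -0.12, whose sign was kept in all 22 alternatives but whose value was -0.031 without IPP 4 and DMSO 1. Mbpa, the myelin basic protein, had 58.9, 68.5, 64.9 and 39.7 FPKM in IPP brains, against 80.5, 73.4, 70.5 and 56.8 FPKM in DMSO brains, and it overlaps a gene on the opposite strand. The groups overlapped, with the lowest value in IPP 4. Microglia genes had a median of -0.069, endothelial genes one of 0.088, thyroid hormone genes one of -0.0036, retinoic acid genes one of 0.041, hypoxia and glycolysis genes one of 0.075, fatty acid synthesis genes one of 0.093, circadian clock genes one of 0.16 and pineal genes one of 0.014. Without IPP 3 and IPP 4 the circadian clock median was -0.095. The endothelial, hypoxia, fatty acid synthesis and pineal medians were negative there too, while that of retinoic acid genes was 0.0082.

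Genes of energy production and of ribosomes had small positive log2 ratios. Of 68 nuclear genes for oxidative phosphorylation, 59 were positive and 9 negative, with a median of 0.12 that kept its sign in all 22 alternatives. The summed FPKM of this list overlapped, with 7096 to 8191 in IPP brains and 6225 to 7595 in DMSO brains. It was highest in IPP 4 and lowest in DMSO 3, and DMSO 1 lay above IPP 1 to 3. Atp5mc3a, a subunit of the ATP synthase ring, had 82.8, 78.3, 83.1 and 81.5 FPKM in IPP brains, against 76.0, 70.6, 64.2 and 68.7 FPKM in DMSO brains, a log2 ratio of 0.22 (95% interval 0.069 to 0.37, unadjusted p = 0.00961), and it overlaps a gene on the opposite strand. In the same list uqcrq, a subunit of complex III, had 0.81 and ndufa1, a subunit of complex I, had 0.51, with overlapping groups. The 13 genes of the mitochondrial genome had a median of -0.022 and all 13 intervals within a 2-fold difference. Of 77 genes for ribosomal proteins, 70 were positive, with a median of 0.10, and rps27a had 82.5, 60.3, 83.9 and 93.0 FPKM in IPP brains, against 49.3, 54.3, 64.3 and 65.6 FPKM in DMSO brains. The median was -0.049 without IPP 3 and IPP 4, the libraries with the highest sums of this list.

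Red blood cell genes had positive log2 ratios throughout. All 14 tested of the 23 in the table were positive, with a median of 0.44 that kept its sign in all 22 alternatives, and 5 were higher at an unadjusted p under 0.05, against 1.56% of all genes. Hbae1.3, an alpha globin, had 11.2, 13.2, 13.1 and 15.104 FPKM in IPP brains, against 10.8, 10.2, 10.1 and 7.35 FPKM in DMSO brains, a log2 ratio of 0.44 (unadjusted p = 0.0127), and every IPP library was above every DMSO library. Slc4a1a, the anion exchanger of the red cell membrane, had 4.67, 6.59, 7.03 and 6.78 FPKM in IPP brains, against 3.76, 5.24, 2.99 and 2.52 FPKM in DMSO brains, a log2 ratio of 0.74 (unadjusted p = 0.00913). Blvrb, a biliverdin reductase, had 5.70, 5.43, 7.496 and 7.91 FPKM in IPP brains, against 5.23, 4.49, 3.61 and 5.28 FPKM in DMSO brains. For blvrb and hbae1.3 the groups did not overlap, and for slc4a1a DMSO 2 lay above IPP 1. The 3 genes were named after their values were seen. The most abundant members overlapped widely, such as hbbe1.1, a beta globin, with 195, 202, 386 and 113 FPKM in IPP brains, against 58.3, 218, 92.1 and 114 FPKM in DMSO brains. Reads of near-identical globin copies may be shared among them, so single globins are uncertain, and how much blood each dissection carried was not tested.

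**Figure D5:**
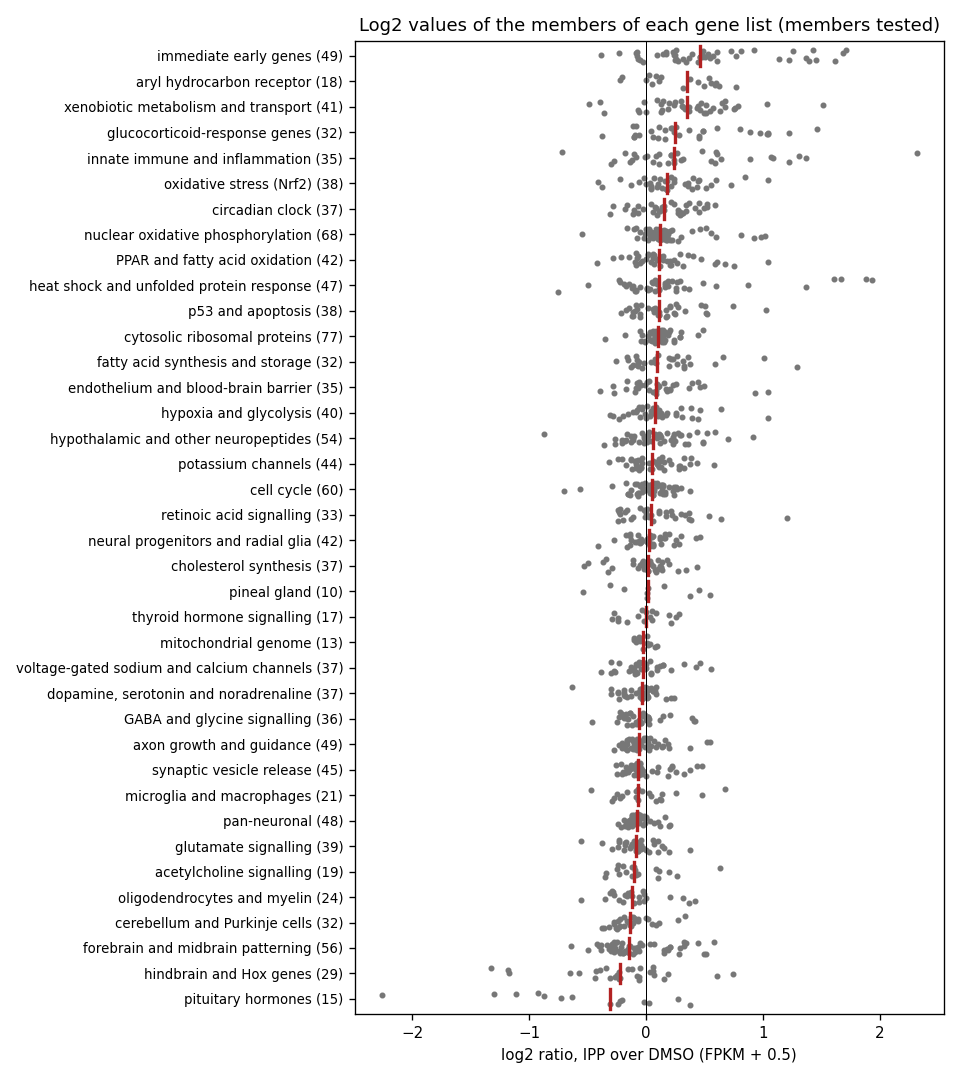
Log2 ratios of IPP over DMSO for the tested members (grey points) of the 38 gene lists other than those of foreign tissue, with each list's median (red bar) and number of members in brackets, ordered by median from highest to lowest. Immediate early genes lie at the top with a median of 0.46 and pituitary genes at the bottom with -0.31, while most medians lie close to 0.

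The difference between tissues was tested with eyes of larvae under the same treatments, over 15856 genes expressed in both. An interaction contrast of the log2 ratio in brain minus that in eye by limma called 0 genes higher (0.0%) and 0 lower (0.0%), with 413 higher (2.6%) and 227 lower (1.43%) at an unadjusted p under 0.05. The smallest adjusted p was 0.972, for npy, a neuropeptide gene. Of the 20 leading brain genes, 19 were tested in both tissues, of which 14 had the same sign in eyes and 5 the opposite one, and 3 had an unadjusted p under 0.05 in the eye fit. The matching shares over all genes were not computed, so these counts show no agreement between the tissues beyond that of other genes. Pou4f2 also had a negative log2 ratio in eyes, -0.68 (unadjusted p = 0.000504), with means of 27.0 FPKM in IPP eyes and 44.0 FPKM in DMSO eyes. Foxd2 had -0.57 (unadjusted p = 0.0158) with 1.47 FPKM in IPP eyes and 2.47 FPKM in DMSO eyes, and chrnb3a had -0.38 (unadjusted p = 0.0389) with 10.8 FPKM in IPP eyes and 14.5 FPKM in DMSO eyes. The difference between the tissues had an unadjusted p under 0.05 for 6 of the 19, which were ppp1r14c at 0.0038, atrxl at 0.0119, mkl1b at 0.017, abhd17aa at 0.0234, snx6 at 0.0289 and gstm.1 at 0.0405. Since all were chosen by their difference in brains, these p-values favour a difference and are given as a description. Smtlb, gh1, prl and pomca were below the expression limit in eyes, so their difference could not be tested. Cxcl18b was at 2.79 in eyes (unadjusted p = 0.0278), with 21.1 FPKM in IPP eyes and 0.838 FPKM in DMSO eyes.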

How the data were processed

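RNA sequencing of 4 IPP and 4 DMSO brain libraries was analysed, with 8 eye libraries for the interaction alone. The submitters' processing notes name HISAT2 2.0.5 and featureCounts 1.5.0-p3 without their roles. No build, annotation or FPKM formula is given in the sources used here, so coordinates are not printed. Per the labels' protocols, both a directional and a non-directional preparation are described, so it is unclear whether counting used strand. Of the 121 genes named singly with a ratio by rule or after their values were seen, 21 overlap a gene on the opposite strand and 3 one on the same strand.

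The authors deposited FPKM values in 1 table per tissue. Median-of-ratios rescaling left the brain counts and the median log2 ratio unchanged. The brain values thus appear to be scaled in that way already, rather than by a library total. Multiplied by gene length, 100% of values were whole multiples of a library's step to within 0.01 read, which gave the reads per library. Interaction ratios compare tables that may have been scaled separately. The reference gene table held 29178 of the 31901 identifiers.

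Genes whose mean reached 0.5 FPKM were tested with limma 3.58.1 in R 4.3.3 (lmFit, eBayes with trend) on log2(FPKM + 0.5), without block or covariate, two-sided, with Benjamini-Hochberg adjustment at 0.05. The 46 gene lists (2115 entries, 1987 in the table, 1624 tested) received no test. Members and lists were chosen with earlier results of these data known. Named are, in each direction, the 10 genes of smallest unadjusted p (mean of 1 FPKM or more, no clone name as symbol, no overlap of groups), since fewer than 4 were called, up to 4 members with the smallest p per list described, and the 3 most abundant genes of each foreign list. The methods were tested on simulated data. Alternatives were pseudocounts of 0.1 and 1, all genes above 0, a minimum of 2 FPKM, median-of-ratios and quantile scaling, the replicate number as block, library weights, limma-voom on rebuilt reads, protein-coding genes, covariates for skin and liver or for cartilage, and leaving out single libraries, IPP 4 with DMSO 1, or IPP 3 with IPP 4. Figures were drawn with matplotlib.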

Additional observations from a re-analysis of the deposited data

Results flagged for a closer look

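Among 290 groups of 4 libraries, from 145 genes, 32 had 1 library far from the other 3 by Dixon's criterion. By chance it marks about 1 group in 20. That rate is no yardstick here, since the genes include markers of foreign tissue and genes named after their values were seen. IPP 4 was the library concerned in 17 of them, DMSO 4 in 6 and DMSO 1 in 5. In IPP 4 genes of the liver and gut list, of muscle and of photoreceptors stood out, with apoa2 at 3822, the trypsin gene prss1 at 3435, apoa1b at 1610, actc1b at 586 and opn1sw1 at 64.9 FPKM. The same library was far above the other IPP brains for the pituitary hormone genes gh1 at 53.5, prl at 7.93 and pomca at 7.44 FPKM. It was also high for pdk2b at 74.2, txnrd3 at 44.1, cyp1a at 35.5, paics at 30.5, aurka at 16.1, pparg at 8.73, ctss2.1 at 1.54 and mt-cyb at 3920 FPKM, and low for foxc1a at 3.64 FPKM.

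DMSO 1 was high for the liver genes apoa2 at 2186 and apoa1b at 1277 FPKM, and for ndnfl at 21.9, cyp1a at 9.37 and pparg at 1.69 FPKM. DMSO 4 was high for the muscle genes actc1b at 395, pvalb1 at 342 and mylz3 at 126 FPKM and for gch2 at 9.33 and gadd45bb at 8.02 FPKM, and low for egr2b at 4.71 FPKM. The remaining cases were eno2 at 184 FPKM in IPP 1, bub3 at 47.7 FPKM in IPP 2, cacnb4a at 0.592 FPKM in IPP 3 and mgst3a at 7.80 FPKM in DMSO 2.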

How the results depend on the processing

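All 22 alternatives for brain called 0 genes in both directions, and so did the 12 for the interaction. Counts at an unadjusted p under 0.05 moved by over 1.5 times in 3 settings other than the loss of 1 library: quantile scaling gave 181 higher, skin and liver covariates gave 887 higher and 506 lower, and leaving out IPP 3 and IPP 4 gave 507 higher and 392 lower. Leaving out 1 library at a time gave 191 to 415 higher and 153 to 437 lower. Of these, 4 moved by over 1.5 times: higher genes numbered 415 without IPP 1, and lower genes 437 without DMSO 4, 153 without DMSO 1 and 159 without DMSO 2. The smallest adjusted p by limma over the alternatives was 0.0703, for smtlb without IPP 4 and DMSO 1. With the replicate number as a block there were 0 calls, with 320 higher and 296 lower at an unadjusted p under 0.05. After each gene's group mean was subtracted, same-numbered libraries correlated at -0.094 to 0.33, and 1 of 4 IPP libraries correlated best with its own number. The numbers were therefore not taken as pairs. For the interaction the block gave 0 calls, with 623 higher and 405 lower.

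The changed filters, the limit to protein-coding genes, the replicate block and median-of-ratios scaling left a gene's log2 ratio as in the main fit. Signs in those fits were thus fixed, and they are among the 2648 counted here. Of 121 genes, log2 ratios turned sign in 21 of 2648 fits. Without IPP 3 and IPP 4 they were 0.0016 for htr1b, -0.069 for plk3, -0.0059 for vegfaa, 0.082 for hoxb5a, 0.34 for hoxc5a, -0.82 for fosab, -0.35 for nr4a1, 0.16 for ache, -0.90 for cyp1a and -0.93 for pparg. With library weights they were -0.13 for fosab, 0.023 for ache, -0.53 for cyp1a and -0.38 for pparg. Without IPP 4 and DMSO 1 they were -0.032 for otx5, 0.024 for ache and -0.22 for pparg. Leaving out 1 library at a time gave -0.21 to 0.82 for fosab (negative without IPP 3), and -0.19 to 0.023 for ache, -0.72 to 1.35 for cyp1a and -0.43 to 0.81 for pparg, which turned sign without IPP 4. The cause was not tested. Of 46 list medians, 7 kept their sign in all 22 alternatives (red blood cells, oligodendrocytes, monoamines, neuropeptides, pituitary, oxidative phosphorylation, and forebrain and midbrain patterning) and 39 turned in at least 1. Among the 22, the replicate block and median-of-ratios scaling could not move a median. No lens gene was left at a minimum of 2 FPKM, so that median has no value there. With 4 libraries a group, a 2-fold difference lay within the interval for many genes under 2 FPKM.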
